A study of Homo sapiens with 18 samples.

Results

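The RNAs described here are the asparagine (Asn) and glutamine (Gln) transfer RNAs of HEK293T cells, a line derived from human embryonic kidney. They were taken as every feature of the count table whose name starts with tRNA-Asn- or tRNA-Gln- and whose end lies at most 500 nt beyond its start, which gave 60 of 175935 features. Of these, 36 were Asn tRNA loci, 34 with the anticodon GTT and 2 with ATT, and 24 were Gln tRNA loci, 18 with CTG and 6 with TTG. The other 439 cytosolic tRNA features of the same length limit served for comparison. In the hg38 sequence the anticodon of the name started at base 35 of the Asn genes and at base 34 of the Gln genes. The exception was tRNA-Gln-CTG-12-1, a gene of 66 nt, where it started at base 30. Only the anticodon was checked in this way, and some names cover more than 1 gene sequence.

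A tRNA carries one amino acid and reads its codons through a 3-base anticodon. Asn-GTT reads the asparagine codons AAC and AAU, Gln-CTG reads the glutamine codon CAG, and Gln-TTG reads CAA. tRNA genes are transcribed by RNA polymerase III (Pol III), which stops in a run of T and leaves a U-rich 3′ end on the precursor. La, the protein made from SSB, binds such U ends and shields them from nucleases before the leader and trailer of the precursor are cut away and the mature tRNA leaves the nucleus.

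Small RNA-seq was done on cells transfected for 48 h with siRNA that targets SSB (siSSB) or with scramble siRNA (control). RNA came from whole cells (total), from nuclei (nuc) or from cytoplasm (cyto), so that 6 groups of 3 biological replicates gave 18 libraries, all marked as PNK-treated. PNK is an enzyme that repairs RNA ends so that more kinds of fragment can enter a library. The comparisons asked which small RNAs depend on La, and where in the cell they lie. SSB mRNA is outside a table of noncoding RNAs, so the depth of the knockdown could not be read from these counts, nor could protein-coding markers of the cell line.

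Column sums ran from 21565995 to 158244813 counts, and the 499 cytosolic tRNA features together held 41216 to 1359549 counts per library, least in the nuclear libraries. Nuclear RNA markers were higher in the nucleus of control cells for 6 of 7 genes (log2 0.19 to 7.29 over all 7, MALAT1 not passing), and cytoplasmic markers were lower there for 6 of 7, the mitochondrial MT-TV being higher by 1.55. Some libraries lay apart in the Asn and Gln counts: control cyto replicate 3, siSSB cyto replicate 3 and siSSB total replicate 3, and values without them are given beside results that they moved. In total RNA control replicate 1 and siSSB replicate 2 lay at the high and the low end of the scaled Asn-GTT counts. The median change in total RNA without each library is given below. Of 13 other Pol III RNAs bound by La, 10 were tested after knockdown, and 3 fell in total, 2 in nuclear and 2 in cytoplasmic RNA. All were vault RNAs, small noncoding RNAs of a cytoplasmic particle, with VTRNA1-1 at -2.25 and VTRNA1-2 at -2.58 in total RNA.

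The sequences below are gene sequences of hg38 in lower case, 5′ to 3′, with the anticodon in capitals. They are shown because the results turn on them: the sequence with most counts for each anticodon first, then the loci that changed or stood apart.
tRNA-Asn-GTT-1-6: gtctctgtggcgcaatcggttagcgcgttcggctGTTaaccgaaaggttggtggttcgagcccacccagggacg
tRNA-Asn-GTT-10-1: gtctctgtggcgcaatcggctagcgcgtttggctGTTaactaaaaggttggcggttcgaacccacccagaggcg
tRNA-Asn-GTT-24-1: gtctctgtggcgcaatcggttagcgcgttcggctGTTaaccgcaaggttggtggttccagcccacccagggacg
tRNA-Asn-GTT-27-1: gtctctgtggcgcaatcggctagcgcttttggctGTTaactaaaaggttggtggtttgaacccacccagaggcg
tRNA-Asn-GTT-9-2: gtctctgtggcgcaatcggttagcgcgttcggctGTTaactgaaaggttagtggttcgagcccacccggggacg
tRNA-Gln-CTG-2-4: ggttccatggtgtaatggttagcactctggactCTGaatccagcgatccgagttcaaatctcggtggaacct
tRNA-Gln-CTG-3-1: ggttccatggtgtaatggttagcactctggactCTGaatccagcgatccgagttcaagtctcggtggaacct
tRNA-Gln-CTG-8-2: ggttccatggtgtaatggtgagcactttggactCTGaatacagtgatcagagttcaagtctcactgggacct
tRNA-Gln-TTG-3-2: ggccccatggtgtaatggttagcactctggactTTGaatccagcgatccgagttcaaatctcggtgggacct
tRNA-Gln-TTG-1-1: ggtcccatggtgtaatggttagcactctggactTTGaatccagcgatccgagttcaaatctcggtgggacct

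Differences are counted from 1 at the 5′ end, with the leading sequence of the anticodon first. tRNA-Asn-GTT-24-1 differed from tRNA-Asn-GTT-1-6 at 2 positions (A43C G58C) and tRNA-Asn-GTT-9-2 at 3 (C41T G50A A68G). tRNA-Asn-GTT-10-1 differed at 8 (T20C C30T C41T G42A T52C G60A G70A A72G). It shared 7 of these (T20C C30T C41T G42A G60A G70A A72G) with tRNA-Asn-GTT-8-1, tRNA-Asn-GTT-12-1 and tRNA-Asn-GTT-27-1, so 4 Asn loci form a sequence subgroup. tRNA-Gln-CTG-3-1 on chromosome 6 differed from tRNA-Gln-CTG-2-4 at 1 position (A58G) and tRNA-Gln-CTG-8-2 at 9 (T20G C27T C40A C44T C49A A58G G63A G64C A68G). tRNA-Gln-TTG-1-1 on chromosome 17 differed from tRNA-Gln-TTG-3-2 at 1 (C3T).

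The 60 loci held 38 distinct gene sequences, and 32 loci shared theirs with another. Chromosome 1 held 41 of them, 32 Asn and 9 Gln, and chromosome 6 held 11, all Gln. The largest set of copies was tRNA-Asn-GTT-1-6 with 8 loci, followed by tRNA-Gln-CTG-2-4 with 5. A read that lies wholly inside a gene cannot be placed among its copies, and each feature reaches 25 nt into both flanks. The 8 tRNA-Asn-GTT-1-6 copies all differ from each other in the 3′ flank, whereas other copies, among them a pair of tRNA-Gln-CTG-8-2 loci, share it base for base. Counts of single copies are thus uncertain, and calls were also counted on loci summed by name, although 5 of 33 names hold more than 1 gene sequence.

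The 3′ flanks were read for a run of at least 4 T on the strand of the gene, the kind of run at which Pol III stops. All 36 Asn loci and all 6 Gln-TTG loci had one within 25 nt, against 3 of 18 Gln-CTG loci (16.7%) and 344 of 439 other tRNA loci (78.4%). None of the 9 Gln-CTG loci on chromosome 1 had such a run. A locus without one in this window may have a stop site of another form or further away. The flanks that matter below are shown 5′ to 3′ from the first base after the gene, with the run in capitals: the 8 tRNA-Asn-GTT-1-6 copies, named by chromosome, then other loci of the results.
chr1 copy 1: cttgtttgagcTTTTaaagtattca
chr1 copy 2: cctctttgagcTTTTaaagtattca
chr1 copy 3: cttgttcgagcTTTTaaagtattca
chr1 copy 4: gctgaaaTTTTagattccaattcct
chr10 copy: cgctctccTTTTatgagctggtcgc
chr13 copy: gtcagtgcttcTTTTcccgagacaa
chr17 copy: ctatgaccTTTTTTTTTTTTTTTTT
chr19 copy: cgtggtgacTTTTgccctcctggaa
tRNA-Asn-GTT-24-1: cttgttcgagcTTTTaaagtattca
tRNA-Asn-GTT-27-1: tcgctgatcTTTTataactcccacg
tRNA-Gln-CTG-8-2: ttctgtataattccagtgaggttcc
tRNA-Gln-TTG-1-1: cacgagacTTTTTggtcctacaatt
tRNA-Gln-TTG-3-2: tcttggctcTTTTTTTTTTTTTTTT

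The run was 17 T long in the window of the chr17 copy of tRNA-Asn-GTT-1-6 and 16 T in that of tRNA-Gln-TTG-3-2 at chr6:27795861-27795932. tRNA-Asn-GTT-24-1 and chr1 copy 3 had the same flank, base for base. The copies lie at chr1:144567515-144567588 (copy 1, minus strand), chr1:145287766-145287839 (copy 2, plus), chr1:148529257-148529330 (copy 3, plus), chr1:161428077-161428150 (copy 4, minus), chr10:22229509-22229582 (minus), chr13:30673964-30674037 (minus), chr17:38751781-38751854 (minus) and chr19:1383563-1383636 (plus). The chr19 copy overlaps an exon of NDUFS7 on the same strand, and copy 4 lies in an intron of a long noncoding RNA. No GENCODE gene covered 32 of the 60 loci.

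The counts were spread unevenly over anticodons. Over all libraries Gln-CTG loci held 111848 counts, Asn-GTT loci 78298, Gln-TTG loci 11971 and the 2 Asn-ATT loci 151. Each library held 1257 to 32015 counts of Asn and Gln together, and 4 Asn-GTT loci had at most 10 counts over all libraries. Together they made up 2.58% to 3.28% of all tRNA counts in control total libraries.

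Per 1000000 tRNA counts of the library and 100 nt of feature, tRNA-Gln-CTG-3-1 on chromosome 6 had the highest level in control total RNA, 2397 ± 319 (SD, n = 3). tRNA-Asn-GTT-10-1 followed with 1924 ± 528 and tRNA-Gln-CTG-2-4 at chr15:65869062-65869133 with 1785 ± 106, and these neighbours in the order overlapped in their libraries. In control cyto RNA the order was led by Gln-CTG loci, with tRNA-Gln-CTG-3-1 at 2384 ± 501 and the chromosome 15 locus at 1991 ± 485. In control nuc RNA it was led by Asn loci, with tRNA-Asn-GTT-10-1 at 2116 ± 363 and the chr10 copy of tRNA-Asn-GTT-1-6 at 1817 ± 408. The pairs named in each fraction overlapped as well.

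The Asn share of the joint Asn and Gln counts does not depend on how libraries are scaled. In control nuc libraries it was 62.3%, 58.1% and 68.2%, and in control cyto libraries 27.4%, 30.6% and 47.1%. The nuclear libraries lay wholly above the cytoplasmic ones, and this held with or without control cyto replicate 3, the highest of its group. In siSSB cells it was 58.5%, 57.6% and 57.0% in nuc and 29.99%, 39.4% and 20.1% in cyto, again without overlap. In total RNA it was 48.8%, 49.7% and 45.7% in control and 42.9%, 32.6% and 50.2% in siSSB libraries, which overlapped each other and the cytoplasmic libraries of the same cells. With 3 libraries against 3 an exact permutation test cannot go below 0.1, so none was used on these shares.

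Within Gln, the TTG share was 7.34%, 8.69% and 9.44% in control total and 11.7%, 10.2% and 10.3% in siSSB total libraries. All siSSB total libraries thus lay above all control ones. In nuc libraries it was 11.3%, 12.01% and 21.2% in control and 20.1%, 19.7% and 22.9% in siSSB cells, where 1 control library reached into the siSSB range. In cyto libraries it was 8.98%, 10.3% and 10.7% in control and 10.1%, 10.1% and 8.10% in siSSB cells, which overlapped.

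**Figure D1:**
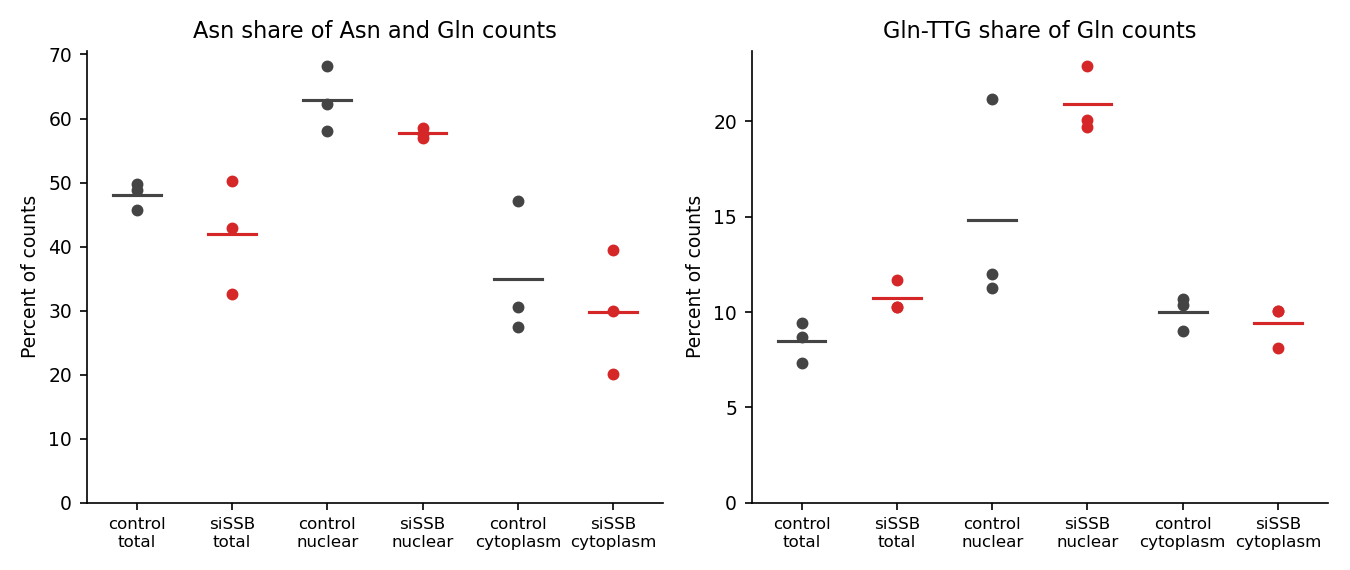
Percent of joint Asn and Gln tRNA counts held by Asn (left) and percent of Gln counts held by Gln-TTG (right), 1 point per library and a line at the mean of 3 libraries, for control (grey) and siSSB cells (red). Asn holds 57.0% to 68.2% in nuclear libraries and 20.1% to 47.1% in cytoplasmic ones, and the Gln-TTG share of siSSB nuclear libraries lies between 19.7% and 22.9%.

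After SSB knockdown, 3 Asn-GTT and 2 Gln-CTG loci fell in total RNA. The feature-wise test (edgeR quasi-likelihood, Benjamini-Hochberg over all features tested) covered 44 of the 60 loci, of which 5 fell and 0 rose, 11.4% of those tested. Over all features tested 0.972% fell, and of 392 other tRNA loci 38 fell (9.69%). The median log2 fold change was -0.99 over the tested Asn and Gln loci, -0.80 over other tRNAs and -0.01 over all features. By anticodon it was -1.12 for 23 Asn-GTT loci with 3 called, -1.02 for 16 Gln-CTG loci with 2 called and -0.61 for 5 Gln-TTG loci with 0 called. In edgeR an unadjusted p under 0.05 was reached by 37 of the 44, and over all features by 2301 of 13883. At 33 loci the control and siSSB libraries did not overlap, which was not counted over all features. In bulk RNA, less of a tRNA per cell and a changed share of other RNAs in the library cannot be told apart.

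Values below are counts per 1000000 of the TMM-scaled library (CPM), set by each comparison's own fit, so levels are comparable only inside a comparison. chr1 copy 3 of tRNA-Asn-GTT-1-6 had 7.20, 5.81 and 5.84 CPM in control and 1.95, 1.26 and 3.50 in siSSB total libraries. It fell by 1.49 on the log2 scale (SE 0.33, adjusted p = 0.045), and no siSSB library reached the control range. It did not pass without control replicate 2 (-1.56) or siSSB replicate 1 (-1.34) or 2 (-1.10). tRNA-Asn-GTT-24-1, at chr1:146370101-146370174 on the plus strand in an intron of a long noncoding RNA of the other strand, had 13.2, 9.36 and 8.84 CPM in control and 3.75, 1.43 and 4.05 in siSSB libraries. It fell by 1.77 (SE 0.35, adjusted p = 0.031) with the groups well apart, and did not pass without control replicate 2 (-1.86) or siSSB replicate 1 (-1.87).

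tRNA-Asn-GTT-27-1, at chr1:121048432-121048505 on the minus strand in an intron of PDE4DIPP4, had 1.93, 1.55 and 1.28 CPM in control and 0.585, 0.3005 and 0.638 in siSSB libraries. It fell by 1.66 (SE 0.31, adjusted p = 0.027), again without overlap, and did not pass without control replicate 2 (-1.69) or siSSB replicate 2 (-1.26). It belongs to the sequence subgroup with 7 shared differences, whose 4 loci had values between -1.75 and -1.50 with a median of -1.65 and 1 called. The other 19 tested Asn-GTT loci had a median of -0.90 and 2 called; the subgroup was formed after these values were seen and is given as a description.

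Among Gln tRNAs, both called loci were copies of tRNA-Gln-CTG-8-2 with the same 3′ flank, so a read of the gene and this flank cannot be placed between them and their calls are not independent. The copy at chr1:146055612-146055683, plus strand in an intron of LINC01719, had 0.522, 0.476 and 0.552 CPM in control and 0.162, 0.168 and 0.233 in siSSB libraries, and fell by 1.46 (SE 0.28, adjusted p = 0.030). The copy at chr1:149044937-149045008, plus strand in an intron of PDE4DIP, had 0.609, 0.524 and 0.639 CPM in control and 0.227, 0.168 and 0.187 in siSSB libraries, and fell by 1.61 (SE 0.27, adjusted p = 0.020). Both groups were tight and did not overlap, though the counts were low, 30 to 44 per control library and 10 to 15 per siSSB library. The first did not pass without control replicate 2 (-1.52) or siSSB replicate 1 (-1.35) or 2 (-1.27), and the second without siSSB replicate 2 (-1.41). The third copy, at chr1:120476852-120476923 on the minus strand, had a value of -1.83 (SE 0.45) that did not pass (adjusted p = 0.074). No copy of tRNA-Gln-CTG-8-2 has a run of 4 T in its 3′ flank.

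The most abundant loci did not pass in total RNA. tRNA-Asn-GTT-10-1 at chr1:145129239-145129312 (plus strand) had 29.5, 17.8 and 12.6 CPM in control and 6.02, 2.20 and 9.56 in siSSB libraries, a difference of -1.75 (SE 0.46, adjusted p = 0.083). The groups did not overlap, and the locus passed when control total replicate 3 (-2.02) or siSSB total replicate 3 (-2.30) was left out. tRNA-Gln-CTG-3-1 at chr6:27547752-27547823 (minus strand) had 32.7, 20.99 and 18.9 CPM in control and 11.8, 9.12 and 15.0 in siSSB libraries, a difference of -1.02 (SE 0.30, adjusted p = 0.12). tRNA-Gln-TTG-1-1 at chr17:49192528-49192599 (plus strand) had 4.19, 3.05 and 3.88 CPM in control and 3.52, 2.01 and 3.25 in siSSB libraries, which overlapped. Its difference was -0.34 (SE 0.26, adjusted p = 0.59), -0.024 without siSSB replicate 2, and 0.15 or 0.30 where libraries were scaled to their size or to snoRNA totals.

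**Figure D2:**
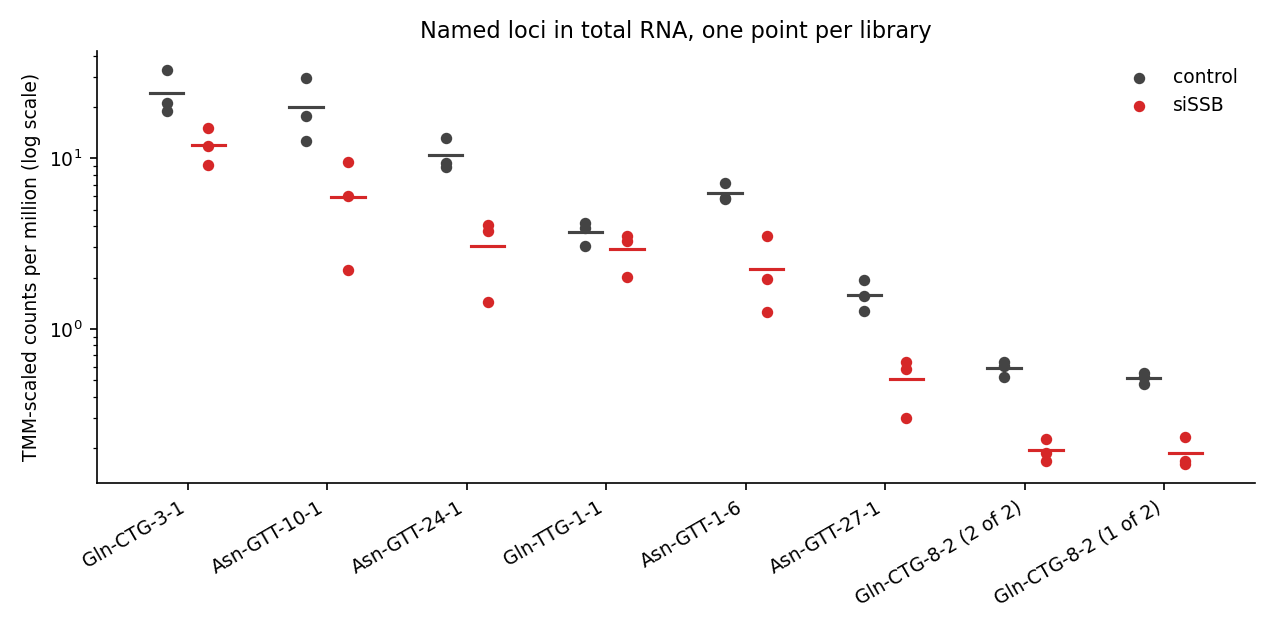
TMM-scaled CPM (log axis) of the 8 named loci in total RNA, 1 point per library with a line at the mean of 3, control in grey and siSSB in red; tRNA-Asn-GTT-1-6 is chr1 copy 3, and the tRNA-Gln-CTG-8-2 loci are numbered by position. The groups are apart at every locus but tRNA-Gln-TTG-1-1, from tRNA-Gln-CTG-3-1 (control mean 24.2) down to tRNA-Gln-CTG-8-2 (control mean 0.516).

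Called loci lay on chromosome 1 in all 5 cases, as did 19 of 23 tested Asn-GTT loci and 8 of 16 tested Gln-CTG loci. The 19 tested Asn-GTT loci of that chromosome had a median of -1.30, and the 4 on other chromosomes a median of -0.62 and a range from -0.89 to -0.17. For Gln-CTG the medians were -1.24 on chromosome 1 and -0.98 elsewhere, over 8 loci each. The 3 tested Gln-CTG loci with a T run had a median of -0.87 and the 13 without one a median of -1.03.

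The sums over an anticodon, for which no test was made, were ordered like the medians. Asn-GTT went from 116 ± 38.7 to 51.7 ± 26.8 CPM (SD, n = 3; log2 difference -1.27, SE 0.54), Gln-CTG from 115 ± 35.9 to 59.2 ± 11.4 (-0.93, SE 0.29) and Gln-TTG from 10.4 ± 1.83 to 7.12 ± 1.46 (-0.55, SE 0.23). For none of the 3 sums did the groups overlap. Control replicate 1 had the highest Asn-GTT sum, 161 CPM, and siSSB replicate 2 the lowest, 25.6 CPM. Without siSSB replicate 2 the Asn-GTT and Gln-TTG sums differed by -0.73 and -0.27. The sum of all tRNA features differed by -0.74, and scaled to library size the Gln-CTG and Gln-TTG sums differed by -0.39 and -0.01.

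With the loci of each name summed, 3 of 23 tested Asn and Gln names fell, against 0.864% of all features in that table. They were Asn-GTT-24 (-1.78, SE 0.35, adjusted p = 0.032), Asn-GTT-27 (-1.67, adjusted p = 0.029) and Gln-CTG-8 with its 3 loci (-1.63, SE 0.27, adjusted p = 0.023). The Asn-GTT and Gln-CTG names with most counts did not pass, with Asn-GTT-1 at -0.88 (adjusted p = 0.28) and Gln-CTG-2 at -0.91 (adjusted p = 0.16). Gln-TTG-3 did not pass either, at -0.75 (adjusted p = 0.15). The Gln-TTG name with most counts was Gln-TTG-1, which was not among the called names. The call of chr1 copy 3 was thus not shared by the sum of its 8 copies, at -0.89 (adjusted p = 0.28). The number of names called was 1 without control replicate 2, 8 without control replicate 3 and 10 without siSSB replicate 3.

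The number of called loci in total RNA moved with single libraries and with scaling. It was 6 without control replicate 1, 1 without control replicate 2, 12 without control replicate 3, 2 and 1 without siSSB replicates 1 and 2, and 13 without siSSB replicate 3. The number of all features called lower, 135, moved as well. It was 101, 61 and 253 without control replicates 1, 2 and 3, and 44, 45 and 244 without siSSB replicates 1, 2 and 3. The median of the tested loci, -0.99, was -0.64, -1.13 and -1.15 without control replicates 1, 2 and 3. It was -0.91, -0.76 and -1.30 without siSSB replicates 1, 2 and 3. Scaling to the library size, to snoRNA or to miRNA totals gave 2, 0 and 38 called loci. These scalings shifted the median of all features to 0.55, 0.71 and -0.53, and left 40, 38 and 44 of the 44 values below 0. Over all features they called 88, 49 and 2049 lower, against 135.

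In nuclear RNA no Asn or Gln locus was called. Of 32 tested loci, 0 passed in edgeR, against 0.378% over all features, and DESeq2 called 2, against 37 of 6873 features. In edgeR 7 of the 32 had an unadjusted p under 0.05, as had 959 of the 6873. The median was -0.27, beside -0.36 over 284 other tRNAs and 0.08 over all features, and 23 of the 32 lay below 0, whereas scaled to library size or snoRNA totals the median was 0.08 and 0.02. Asn-GTT loci had a median of -0.36, Gln-CTG loci of -0.21, and the 2 tested Gln-TTG loci lay at 1.36 and -0.28.

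tRNA-Asn-GTT-10-1 had 1.53, 1.04 and 1.36 CPM in control and 0.639, 0.282 and 0.502 in siSSB nuc libraries. The groups did not overlap and differed by -1.47 (SE 0.32), which missed the threshold (adjusted p = 0.076) and passed without control nuc replicate 2 (-1.62) or 3 (-1.50). tRNA-Gln-TTG-1-1 on chromosome 17 went the other way, with 0.185, 0.174 and 0.240 CPM in control and 0.521, 0.398 and 0.620 in siSSB nuc libraries. Every siSSB library lay above every control one. The difference was 1.36 (SE 0.30, adjusted p = 0.085), on 20 to 26 counts per control and 55 to 68 per siSSB library. It passed among features of at most 500 nt (1.58, adjusted p = 0.035) and with the replicate number as a block (1.35, adjusted p = 0.039).

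The chr10 copy of tRNA-Asn-GTT-1-6, the Asn-GTT locus with most counts over the nuclear libraries, had 1.10, 0.947 and 1.30 CPM in control and 1.61, 1.30 and 1.82 in siSSB nuc libraries, a difference of 0.50 (SE 0.27, adjusted p = 0.42). The ranges overlapped only at their edge. tRNA-Gln-CTG-3-1 on chromosome 6 had 1.13, 1.05 and 0.779 CPM in control and 0.844, 0.622 and 0.812 in siSSB nuc libraries, which overlapped (-0.38, adjusted p = 0.51). Names summed gave 0 called of 16, with 5 at an unadjusted p under 0.05 in edgeR, as had 917 of 6723 features in that table. The anticodon sums differed by -0.39 for Asn-GTT, -0.18 for Gln-CTG and 0.48 for Gln-TTG, each with overlapping libraries, and scaled to library size by -0.05 for Asn-GTT and 0.16 for Gln-CTG. Without control nuc replicate 2 or 3, 2 names and 1 name were called, against 27 of 7658 and 32 of 8109 features in those tables.

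In cytoplasmic RNA all 46 tested loci had values below 0, 40 when scaled to library size and 29 when scaled to snoRNA totals, but none was called. edgeR called 0 of them, against 0.291% over all features, and DESeq2 called 4, against 163 of 18921 features. In edgeR 15 of the 46 had an unadjusted p under 0.05, as had 1260 of the 18921. The median was -0.54, beside -0.61 over 396 other tRNAs, of which 19 fell, and 0.01 over all features. Asn-GTT loci had a median of -0.80, Gln-TTG loci of -0.52 and Gln-CTG loci of -0.37. The libraries of the groups did not overlap at 14 loci, which was not counted over all features.

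chr1 copy 3 of tRNA-Asn-GTT-1-6 came nearest to the threshold, with a difference of -1.54 (SE 0.26, adjusted p = 0.054). tRNA-Asn-GTT-10-1 had 21.2, 16.0 and 50.1 CPM in control and 11.7, 16.1 and 9.81 in siSSB cyto libraries, a difference of -1.21 (SE 0.43, adjusted p = 0.51). Control replicate 3 stood far above the rest, and the value without it was smaller, -0.51. tRNA-Gln-CTG-3-1 on chromosome 6 had 122, 88.2 and 86.1 CPM in control and 64.2, 50.7 and 113 in siSSB cyto libraries, where siSSB replicate 3 lay inside the control range (-0.38, SE 0.33, adjusted p = 0.90). It lay at -0.79 without that library, and at -0.17 without control replicate 1 and -0.16 without siSSB replicate 2. tRNA-Gln-TTG-1-1 on chromosome 17 had 21.3, 17.5 and 21.3 CPM in control and 14.5, 11.4 and 19.6 in siSSB cyto libraries, also overlapping (-0.40, adjusted p = 0.84), and lay at -0.64 without siSSB replicate 3.

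Names summed gave 0 called of 25, with 13 at an unadjusted p under 0.05 in edgeR, as had 1192 of 18700 features in that table. The Asn-GTT sum went from 300.1 ± 106 to 166 ± 16.6 CPM (-0.80, SE 0.31) without overlap, whereas the Gln-CTG (-0.43) and Gln-TTG (-0.53) sums overlapped. The Asn-GTT sum differed by -0.48 without control replicate 3, and the Gln-CTG and Gln-TTG sums by -0.84 and -0.83 without siSSB replicate 3. The sum of all tRNA features differed by -0.59.

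**Figure D3:**
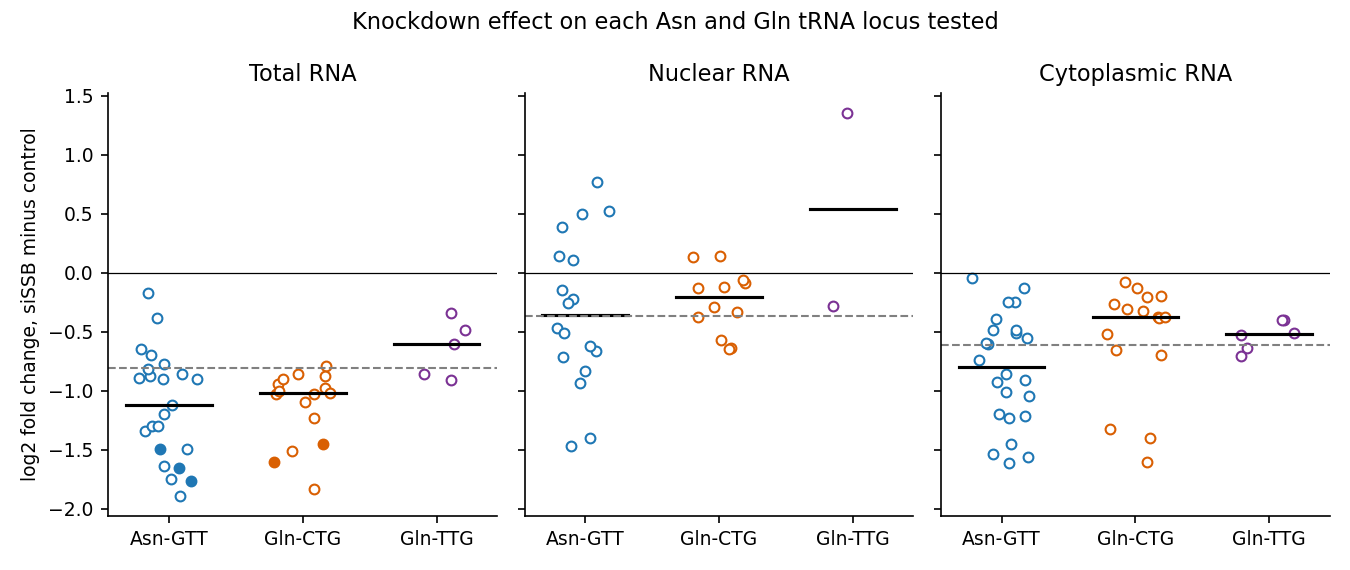
Log2 fold change (siSSB minus control) of each tested Asn-GTT, Gln-CTG and Gln-TTG locus in total, nuclear and cytoplasmic RNA, filled where adjusted p was under 0.05; black bars are medians over the tested loci and the dashed line is the median of other tRNAs. All loci lie below 0 in total and cytoplasmic RNA, the 5 filled points are in total RNA, and tRNA-Gln-TTG-1-1 stands at 1.36 in nuclear RNA.

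An interaction term over the 12 fraction libraries tested whether knockdown acted differently in nucleus and cytoplasm. edgeR and DESeq2 each called 0 of 50 Asn and Gln loci, where edgeR called 0.0133% of all features. In edgeR 3 of the 50 had an unadjusted p under 0.05, as had 1836 of 37493 features. The median was 0.23. tRNA-Gln-TTG-1-1 on chromosome 17 had the value 1.61 (SE 0.48), with an unadjusted p of 0.0018 that did not hold after adjustment (adjusted p = 0.96). For tRNA-Asn-GTT-10-1 it was -0.38, between -0.95 without control cyto replicate 3 and -0.063 without control cyto replicate 2. For tRNA-Gln-CTG-3-1 it was -0.17, and 0.32 without siSSB cyto replicate 3, so a difference in knockdown effect between the fractions was not detectable at this depth for these loci.

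More loci passed between nucleus and cytoplasm. In control cells 38 of 49 tested loci passed, 37 lower in the nucleus, 75.5% of those tested, against 14.1% lower over all features and 316 of 408 other tRNAs (77.5%). Only 1, tRNA-Asn-GTT-9-2, was higher, against 9.21% of all features. The median log2 difference (nucleus minus cytoplasm) was -2.55, beside -2.23 over other tRNAs and -0.27 over all features. Its size depended on scaling: with library size, snoRNA or miRNA totals it was -6.63, -8.40 and -3.28. The median of all features was then -4.33, -6.10 and -1.06. All 17 tested Gln-CTG loci were lower (median -2.75), as were 5 of 6 Gln-TTG loci (-2.84), both Asn-ATT loci and 13 of 24 Asn-GTT loci (-1.20). With loci at 0 in every nuclear library set to their bound, the Gln-CTG and Gln-TTG medians were -2.66 and -2.64. The Asn-ATT median was then -1.08 instead of -4.06, as its 2 loci together held 0, 1 and 0 counts in the control nuc libraries.

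tRNA-Gln-CTG-2-4 at chr6:18836171-18836242 (plus strand) had 12.6, 6.26 and 5.50 CPM in control cyto and 0.579, 0.802 and 0.285 in control nuc libraries. At -3.85 (SE 0.41, adjusted p = 3.01e-09) it was the lowest of the loci with a mean of at least 50 counts over these 6 libraries, and its fractions were far apart. tRNA-Asn-GTT-20-1, at chr1:146049198-146049273 on the minus strand, had 2.07, 1.60 and 3.27 CPM in cyto and 0.221, 0.0963 and 0.214 in nuc libraries, a difference of -3.70 (SE 0.43, adjusted p = 2.73e-08). tRNA-Gln-TTG-1-1 at chr6:28589379-28589450 (plus strand) had 2.27, 1.77 and 1.49 CPM in cyto and 0.0276, 0.225 and 0.214 in nuc libraries, a difference of -3.61 (SE 0.47, adjusted p = 1.6e-07). Neither overlapped. tRNA-Gln-TTG-4-1, at 0 in all nuclear libraries, was at least 3.36-fold lower there in control cells and at least 2.35-fold lower in siSSB cells, taking 3 counts per library as the floor.

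tRNA-Asn-GTT-9-2, at chr1:148048516-148048589 on the minus strand, had 1.39, 0.906 and 2.14 CPM in cyto and 3.59, 2.47 and 3.95 in nuc libraries. It was higher in the nucleus by 1.17 (SE 0.34, adjusted p = 0.010), and the fractions did not overlap. It did not pass without control cyto replicate 1 (1.05) or 2 (0.82) or control nuc replicate 1 (1.14) or 3 (1.05), and scaled to library size or snoRNA totals, which put the median of all features at -4.33 and -6.10, it was at -2.94 and -4.69. tRNA-Asn-GTT-10-1 had 4.75, 3.44 and 11.2 CPM in cyto and 5.93, 3.85 and 5.02 in nuc libraries, which overlapped (-0.39, adjusted p = 0.48), and lay at 0.21 without control cyto replicate 3.

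Among the leading loci, tRNA-Gln-CTG-3-1 on chromosome 6 had 27.2, 19.0 and 19.2 CPM in cyto and 4.36, 3.88 and 2.88 in nuc libraries (-2.55, SE 0.32, adjusted p = 7.28e-08). tRNA-Gln-TTG-1-1 on chromosome 17 had 4.76, 3.78 and 4.75 CPM in cyto and 0.717, 0.642 and 0.890 in nuc libraries (-2.57, SE 0.34, adjusted p = 2.25e-07). Both were lower in every nuclear library. Copies of tRNA-Asn-GTT-1-6 were lower by less, chr1 copy 1 at -1.23 (SE 0.35, adjusted p = 0.0079) with 4.08, 2.85 and 7.24 CPM in cyto and 2.24, 1.41 and 2.39 in nuc libraries, and chr1 copy 3 at -1.58 (SE 0.32, adjusted p = 0.00021) with 4.33, 4.24 and 6.15 in cyto and 1.66, 1.41 and 1.85 in nuc libraries. Neither overlapped between fractions, and copy 1 did not pass without control nuc replicate 2 (-1.01).

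In siSSB cells 29 of 46 tested loci were lower in the nucleus (63.0%) and 0 higher, against 14.5% lower over all features and 267 of 395 other tRNAs (67.6%). The median was -1.99, beside -1.93 over other tRNAs, with 13 of 16 Gln-CTG loci (-2.75), 5 of 6 Gln-TTG loci (-2.43) and 11 of 24 Asn-GTT loci (-0.91) lower. With tRNA-Gln-TTG-4-1, at 0 in every nuclear library, set to its bound, the Gln-TTG median was -1.78. In the table of features of at most 500 nt, 22 loci were lower and 3 higher, and the Asn-GTT median was -0.14. Control and siSSB cells have no libraries in common here, and the difference of the fraction effects is the interaction given above.

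Among loci with a mean of at least 50 counts over these 6 libraries, tRNA-Gln-CTG-2-4 at chr6:18836171-18836242 again had the lowest value, with 4.92, 4.35 and 15.0 CPM in siSSB cyto and 0.318, 0.260 and 0.673 in siSSB nuc libraries (-4.30, SE 0.50, adjusted p = 1.12e-07). tRNA-Gln-CTG-2-1, at chr1:143691474-143691545 on the plus strand, had 4.63, 3.54 and 10.9 CPM in cyto and 0.495, 0.463 and 0.356 in nuc libraries (-3.84, SE 0.45, adjusted p = 1.02e-07). tRNA-Asn-GTT-20-1 had 0.864, 0.984 and 1.41 CPM in cyto and 0.106, 0.0578 and 0.0792 in nuc libraries (-3.73, SE 0.48, adjusted p = 6.14e-07). All were low in each nuclear library without overlap, as was tRNA-Gln-CTG-3-1 on chromosome 6 with 17.2, 14.5 and 33.3 CPM in cyto and 3.79, 2.49 and 3.52 in nuc libraries (-2.73, SE 0.36, adjusted p = 1.04e-06).

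The called loci that differed least were tRNA-Gln-TTG-1-1 on chromosome 17, with 3.89, 3.27 and 5.77 CPM in siSSB cyto and 2.34, 1.59 and 2.69 in siSSB nuc libraries (-0.97, SE 0.35, adjusted p = 0.040), and a pair of Asn-GTT loci. tRNA-Asn-GTT-24-1 had 2.15, 3.25 and 2.85 CPM in cyto and 1.59, 0.665 and 1.58 in nuc libraries (-1.11, SE 0.37, adjusted p = 0.027). tRNA-Asn-GTT-8-1, at chr1:149740248-149740321 on the minus strand, had 0.650, 1.25 and 1.09 CPM in cyto and 0.566, 0.376 and 0.475 in nuc libraries (-1.08, SE 0.38, adjusted p = 0.035). Each was apart by little, and each lost its call without certain libraries. tRNA-Gln-TTG-1-1 did so without siSSB cyto replicate 1 (-1.13) or 3 (-0.72) or any siSSB nuc replicate (-0.95, -0.72 and -1.09), tRNA-Asn-GTT-24-1 without siSSB cyto replicate 2 (-1.03) or siSSB nuc replicate 1 (-1.25) or 2 (-0.74), and tRNA-Asn-GTT-8-1 without siSSB cyto replicate 2 (-0.94) or any siSSB nuc replicate (-1.17, -0.87 and -1.04).

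The most abundant loci of Asn-GTT did not pass in siSSB cells. The chr10 copy of tRNA-Asn-GTT-1-6 had 3.77, 6.02 and 3.84 CPM in cyto and 7.22, 5.18 and 7.88 in nuc libraries, which overlapped (0.57, SE 0.33, adjusted p = 0.22). tRNA-Asn-GTT-10-1 had 3.15, 4.61 and 2.88 CPM in cyto and 2.87, 1.13 and 2.18 in nuc libraries (-0.79, adjusted p = 0.12), barely apart, and passed without siSSB cyto replicate 3 (-0.96).

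With names summed, 20 of 26 were lower in the nucleus of control cells and 16 of 24 in siSSB cells, against 13.7% and 14.3% over all features in those tables. Without siSSB nuc replicate 2 the number in siSSB cells was 10, where 2604 of 20389 features in that table were lower. Gln-CTG-2 lay at -2.96 and -2.94, Gln-TTG-3 at -1.63 and -1.46, and Asn-GTT-1 at -1.19 in control cells, all with an adjusted p under 0.05, whereas Asn-GTT-1 in siSSB cells (-0.69, adjusted p = 0.099) did not pass. The untested anticodon sums gave the same order, -2.76 for Gln-CTG, -2.17 for Gln-TTG and -0.996 for Asn-GTT in control cells and -2.69, -1.34 and -0.77 in siSSB cells.

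**Figure D4:**
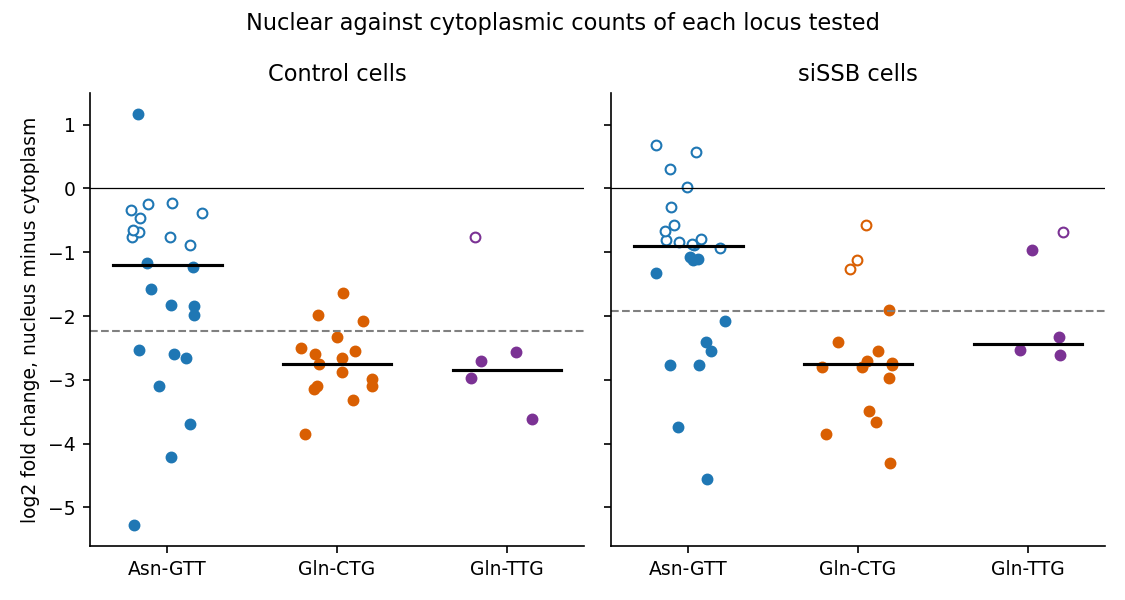
Log2 fold change (nucleus minus cytoplasm) of each tested Asn-GTT, Gln-CTG and Gln-TTG locus in control and siSSB cells, leaving out loci at 0 in every library of a fraction; filled points had adjusted p under 0.05, black bars are medians over tested loci and the dashed line is the median of other tRNAs. Gln-CTG loci lie around -2.75 in both cells and Asn-GTT loci spread more widely around -1.20 and -0.91.

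The 8 loci with the tRNA-Asn-GTT-1-6 sequence did not share their counts equally, which would be 12.5% each. In control total RNA the chr10 copy held 24.7% on average (lowest library 23.1%, highest 25.6%), and the chr19 copy held 5.93% (5.57% to 6.54%). In control nuc RNA the chr10 copy held 29.2% (24.9% to 31.9%) and copy 4 on chromosome 1 held 6.11% (4.26% to 7.27%). In control cyto RNA the shares lay closer together, with 14.5% (12.2% to 17.3%) for the chr10 copy and 16.3% (14.9% to 17.9%) for copy 4. The nuclear and cytoplasmic libraries did not overlap for either locus.

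Some copies held another share after knockdown. The chr10 copy held 40.7% (39.8% to 41.2%) in siSSB nuc RNA, above every control nuc library, but 23.8% (17.9% to 26.8%) in total and 16.7% (13.4% to 20.8%) in cyto RNA, where it overlapped the control libraries. chr1 copy 3 held 11.9% of control total counts (10.2% to 13.0%) and 7.70% of siSSB total counts (6.73% to 8.45%), and the shares were 11.5% against 7.08% in nuc and 15.1% against 8.04% in cyto RNA. chr1 copy 1 held 13.6% against 9.90% in total, 13.8% against 8.33% in nuc and 13.7% against 9.47% in cyto RNA. In all fractions the siSSB libraries of these 2 copies lay below the control libraries.

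The chr17 and chr19 copies held a larger share after knockdown in total and cyto RNA. The chr17 copy went from 9.22% (8.99% to 9.55%) to 12.9% (12.1% to 14.0%) in total and from 8.28% (7.24% to 9.10%) to 10.8% (10.3% to 11.1%) in cyto RNA, and the chr19 copy from 5.93% to 9.88% (8.94% to 10.5%) in total and from 8.37% (7.99% to 8.78%) to 11.96% (11.6% to 12.2%) in cyto RNA. None of these overlapped. In nuc RNA both overlapped, with 11.1% (8.98% to 12.2%) and 11.9% (11.3% to 12.6%) for the chr17 copy and 5.07% (3.68% to 7.75%) and 4.58% (3.91% to 5.27%) for the chr19 copy. Shares of one set sum to 100%, so a lower share of some copies is matched by a higher one of others, and no test was made on them.

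**Figure D5:**
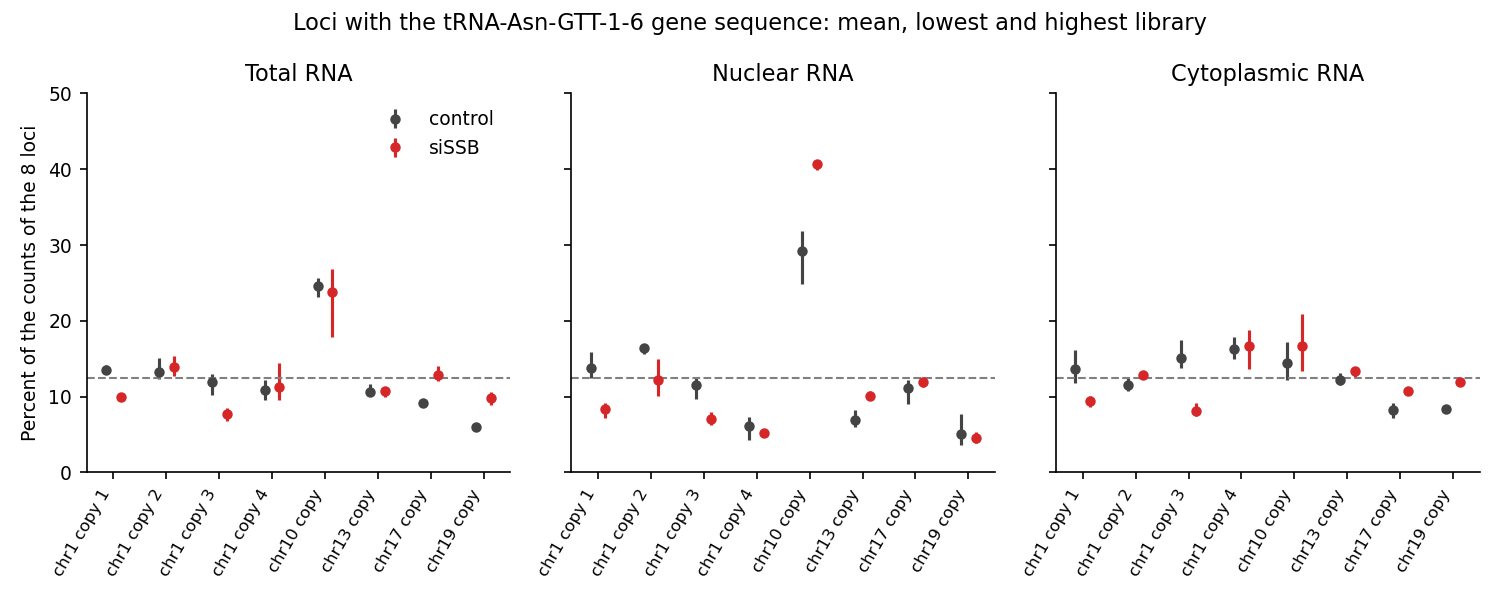
Percent of the counts of the 8 loci with the tRNA-Asn-GTT-1-6 gene sequence held by each copy in total, nuclear and cytoplasmic RNA, for control (grey) and siSSB cells (red); points are means of 3 libraries, bars run from the lowest to the highest library and the dashed line is the equal share of 12.5%. The chr10 copy stands at 40.7% in siSSB nuclear RNA and at 29.2% in control nuclear RNA, and chr1 copies 1 and 3 are lower in siSSB cells in each fraction.

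The Gln-TTG copies were uneven as well. Of the 3 loci with the tRNA-Gln-TTG-3-2 sequence, the one at chr6:27795861-27795932, with 16 T in its flank, held 41.8% in control cyto libraries (40.4% to 43.1%) and 75.3% in control nuc libraries (61.9% to 83.6%), without overlap. In siSSB nuc libraries it held 71.0% (63.5% to 76.6%), inside the control range. The nuclear shares rest on few counts, as all Gln-TTG loci together held 90, 68 and 98 in control nuc libraries. In siSSB nuc libraries they held 133, 105 and 132. Its own counts were the exception among Gln-TTG loci in the nucleus, with a difference between nucleus and cytoplasm of -0.76 in control cells (adjusted p = 0.12) and -0.69 in siSSB cells (adjusted p = 0.18) that did not pass in either.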

How the data were processed

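Small RNA libraries of HEK293T cells (18, in 6 groups of 3 biological replicates) were made by the study's authors, who mapped reads with Bowtie2 and used bedtools on hg38; the labels give no versions, and the study's documents differ on that of Bowtie2. The counts deposited by the authors are raw whole-number counts over RNAcentral features widened by 25 nt on each side. Strand use and the treatment of reads with several hits are not given in the sources used here, overlapping features can count the same read, and there were no molecular identifiers, so floors cover counting error only. Column sums ran from 21565995 to 158244813, and 3 counts correspond to 0.000221% to 0.00728% of a library's tRNA counts.

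Groups came from the sample labels. Each comparison was fitted on its own libraries over all features, with edgeR 4.0.16 (TMM scaling, filterByExpr, quasi-likelihood F-test; limma 3.58.1, R 4.3.3) and Benjamini-Hochberg adjustment, called under 0.05. Standard errors are the log2 fold change over the square root of F. The steps were tested on simulated data. Tables were made with Python 3.11.15, pandas 2.3.3 and numpy 2.4.6. Loci of 1 name up to the copy number were also summed and tested the same way; 5 of 33 such names hold more than 1 gene sequence. Gene and flank sequences and gene annotation were read from the hg38 reference.

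Loci named are, for each anticodon, the one with the highest mean count; every called locus after knockdown; and, between fractions, the 3 highest and 3 lowest called loci among those that averaged 50 counts or more and whose libraries did not overlap. Other loci were named after their values were seen: the copies of tRNA-Asn-GTT-1-6 and tRNA-Gln-TTG-3-2, tRNA-Gln-TTG-4-1 and the sequence subgroup. The members and lists were chosen with earlier results of these data known. Alternatives were library size, snoRNA or miRNA scaling, DESeq2 1.42.0, no filter, features of at most 500 nt, a replicate block and leaving out each library; summing by sequence was added after seeing the data.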

Additional observations from a re-analysis of the deposited data

Results flagged for a closer look

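tRNA-Asn-GTT-8-1 moved in opposite directions in the fractions after knockdown. Its log2 difference was 0.77 in nuclear RNA, where every siSSB library lay above every control library, and -0.86 in cytoplasmic and -1.50 in total RNA, where every siSSB library lay below. Counts were 9, 7 and 7 in control and 16, 13 and 12 in siSSB nuclear libraries. No single value passed (adjusted p = 0.42, 0.56 and 0.11, edgeR). The difference between the nuclear and cytoplasmic effects was 1.48 (SE 0.57), with an unadjusted p of 0.013 and an adjusted p of 0.96 in the edgeR interaction test; that between nuclear and total RNA was not tested.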

How the results depend on the processing

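Calls after knockdown depended on the processing, and the cause was not tested. In total RNA the number of called loci, 5, was 2 with library size (1 of the 5 among them), 17 with DESeq2 (2 of the 5) and 0 with snoRNA totals. It was 38 with miRNA totals, 20 without a filter and 8 with the replicate block, each holding all 5. tRNA-Asn-GTT-27-1 and both called tRNA-Gln-CTG-8-2 loci had no adjusted p in DESeq2, so they neither passed nor failed there. Over all features the number called lower, 135 of 13883, was 88 with library size, 298 with DESeq2 and 49 with snoRNA totals. It was 2049 with miRNA totals, 436 of 114675 without a filter and 162 with the block. That of called names, 3, was 13 without a filter and 5 with the block. In nuclear RNA the number of loci, 0, was 2 with DESeq2, 2 without a filter, 1 among features of at most 500 nt and 3 with the block, and that of names, 0, was 2 without a filter and 2 with the block. Of all features, 37 of 6873 were called with DESeq2, 67 of 92966 without a filter and 40 of 6873 with the block. Among features of at most 500 nt it was 24 of 1168. In cytoplasmic RNA the number of loci, 0, was 4 with DESeq2, 3 with miRNA totals and 7 without a filter, and that of names, 0, was 4 without a filter. Of all features, 163 of 18921 were called with DESeq2, 108 of 18921 with miRNA totals and 248 of 126681 without a filter. Between fractions in siSSB cells the number, 29, was 46 with library size and 46 with snoRNA totals, and 25 among features of at most 500 nt, 22 lower and 3 higher. Over all features 25211 and 25645 of 26274 were lower with library size and snoRNA totals. Among features of at most 500 nt, 828 of 1979 were lower and 627 higher. In control cells the number of loci lower in the nucleus, 37, was 49, 49 and 48 with library size, snoRNA and miRNA totals. Over all features 25770, 26108 and 8217 of 26774 were lower with these scalings. Same-numbered samples deviated from their group means with correlations of 0.033, 0.24 and -0.53 in total, 0.298, -0.21 and -0.26 in nuclear and -0.28, -0.40 and -0.57 in cytoplasmic RNA, and of 0.085, 0.101 and 0.16 between fractions in control and -0.061, 0.136 and 0.061 in siSSB cells. In no comparison were all above 0.1, so the numbers were not taken as pairs. With the block 38 and 32 loci passed between fractions in control and siSSB cells, and 0 in the interaction.

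Summing loci by gene sequence, chosen after seeing the data, gave 3 of 28, 0 of 20 and 0 of 30 sequences called after knockdown in total, nuclear and cytoplasmic RNA, and 24 of 31 and 19 of 29 between fractions in control and siSSB cells. Leaving out 1 library gave 1 to 13 loci and 1 to 10 names in total, 0 to 1 and 0 to 2 in nuclear, and 0 to 0 for both in cytoplasmic RNA. Over all features the same fits called 44 to 253 lower in total RNA, and 0 to 37 in nuclear and 2 to 45 in cytoplasmic RNA in either direction. Between fractions leaving out 1 library gave 32 to 36 loci and 16 to 20 names in control cells, 23 to 29 and 10 to 16 in siSSB cells, and 0 to 0 for the interaction. Over all features these fits between fractions called 5043 to 6103 in control and 5076 to 6339 in siSSB cells.

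With library size, the Gln-CTG and Gln-TTG sums were -0.39 and -0.014 after knockdown in total RNA, and the Asn-GTT and Gln-CTG sums -0.052 and 0.16 in nuclear RNA. Between fractions the Asn-GTT, Gln-CTG and Gln-TTG sums were -5.16, -6.93 and -6.34 in control and -4.61, -6.53 and -5.18 in siSSB cells. Signs turned for tRNA-Gln-TTG-1-1 on chromosome 17 in total RNA (0.15 with library size, 0.30 with snoRNA totals, 0.00016 among features of at most 500 nt) and cytoplasm (0.018, snoRNA), and for tRNA-Gln-CTG-3-1 on chromosome 6 in cytoplasm (0.021, snoRNA). Between fractions they turned for tRNA-Asn-GTT-10-1 in control cells (0.19 among features of at most 500 nt, and from -0.79 without control cyto replicate 2 to 0.21 without replicate 3), tRNA-Asn-GTT-9-2 (-2.94 with library size, -4.69 with snoRNA totals) and the chr10 copy of tRNA-Asn-GTT-1-6 in siSSB cells (-3.28 and -5.29). For the interaction they turned for tRNA-Asn-GTT-10-1 (0.15, miRNA) and tRNA-Gln-CTG-3-1 (0.13 with library size, 0.41 with miRNA totals, and from -0.40 without siSSB cyto replicate 2 to 0.32 without replicate 3). Of the other values of named loci, 416 kept direction and side of the threshold, 23 newly passed and 47 no longer passed. Nuclear libraries hold the fewest tRNA counts.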
